A study of Mus musculus with 24 samples.

Results

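Interferon-induced genes are the set that cells switch on when interferons, the secreted alarm proteins of antiviral defence, bind their receptors. A list of 39 of them was followed through mouse thyroid glands and thyroid tumours. Members were chosen by name, with no threshold on a measured value, and each was read through its brightest probe set on average. Of the 39 genes, 33 had a probe set naming that gene alone, among 12394 genes compared. Ddx58, Oas1g, Isg15, Gbp4, Ifi44 and Xaf1 had none and were dropped.

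RNA was read on 24 Affymetrix Mouse430A_2 arrays, which report log2 intensities. The normal tissue came as 6 pools of thyroid glands, 4 titled WT and 2 titled Cre. Tumours comprised 4 papillary cancers (PTC), 5 anaplastic cancers (ATC) and 9 recurrent tumours. Papillary cancers as a class keep more thyroid differentiation than anaplastic ones, which lose it. The series title places the recurrent tumours after inactivation of BRAF in anaplastic cancers, and the labels give no genotype, age or treatment for any group. Nothing in the labels says that tumours came from separate mice, so the p-values reflect only the spread among these arrays, which may be technical, and precision is limited by how few arrays there are.

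Signals of type I and type II interferon matter for these genes. Type I interferons act through the receptor chains Ifnar1 and Ifnar2, the kinases Jak1 and Tyk2 and a complex holding Stat2 and Irf9 that binds a promoter element called ISRE. Type II interferon, the product of Ifng made mainly by T and NK cells, acts through Ifngr1 and Ifngr2 and leads to binding at an element called GAS. Follicular cells, macrophages and lymphocytes can all respond, so in whole tissue RNA, fewer cells of a type and less RNA per cell cannot be told apart.

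The labels were checked first. The thyroid genes Tg and Pax8 were at 14.80 or above and 11.12 or above on every normal pool. In PTC Tg was at 13.11 to 14.24 and Pax8 at 9.26 to 10.19, both below every pool on every array. Pax8 was between 4.76 and 7.70 on ATC and recurrent arrays, but Tg was still at 13.48 on ATC array 4, 11.31 on recurrent array 1 and 14.18 on recurrent array 4. Braf was at 10.29 to 11.98 in ATC and at 5.62 to 7.14 on 8 recurrent arrays, while the array labelled recurrent 2 lay at 11.14. By title, JK arrays hold 4 pools, 4 PTC, 2 ATC and recurrent arrays 1 to 3, bare numbers mark 3 ATC and 6 recurrent arrays, and the Cre pools stand apart. Gapdh, read at its 3' minus its 5' end as a sign of RNA integrity, was at -0.02 to 0.17 on the bare-number arrays, 1.11 to 1.60 in PTC and 0.36 to 1.07 on all others.

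The promoters show what many members have in common. RefSeq (GRCm38.p6) gave promoters for 24 of the 33 measured members, and the 250 bases before each start were searched on both strands. The ISRE core, GAAA repeated with 2 bases of any kind between (on the other strand TTTC repeated likewise), was present for 12 of these 24 genes and for 3.35% of the 9888 compared genes with a promoter. The GAS core, TTC and GAA with 3 bases of any kind between, reads the same on both strands and was present for 9 of 24 (37.5%) against 7.31%. A match describes letters only, and its use in these tissues was not measured. Stretches of 7 members with an ISRE match are printed, 5 called in ATC below and Ifit1 and Gbp2, which were not called, to set beside Ifit3 and Igtp of the same role groups, with the matches in capitals, each on its gene's strand:

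Ifit1, chr19:34640760-34640838 (+): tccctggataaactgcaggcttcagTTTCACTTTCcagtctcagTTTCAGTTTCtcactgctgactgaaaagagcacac
Ifit3, chr19:34583348-34583441 (+): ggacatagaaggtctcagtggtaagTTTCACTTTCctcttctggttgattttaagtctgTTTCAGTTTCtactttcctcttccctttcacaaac
Rsad2, chr12:26456538-26456597 (-): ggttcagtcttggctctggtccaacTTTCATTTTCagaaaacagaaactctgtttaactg
Stat2, chr10:128270251-128270310 (+): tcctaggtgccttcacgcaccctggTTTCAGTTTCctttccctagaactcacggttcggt
Igtp, chr11:58199497-58199555 (+): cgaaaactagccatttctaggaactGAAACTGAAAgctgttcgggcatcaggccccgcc
Gbp2, chr3:142620579-142620638 (+): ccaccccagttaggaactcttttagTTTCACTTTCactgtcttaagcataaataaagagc
Bst2, chr8:71537562-71537627 (-): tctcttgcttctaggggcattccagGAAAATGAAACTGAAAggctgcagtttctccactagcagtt

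Ifit1 and Ifit3 each carried a pair of matches, and the 2 matches of Bst2 overlap. Promoters of Ifih1, Irf9, Ifit2 and Ifi35, called lower in ATC below, held no ISRE core, nor did those of Isg20, called higher. Gbp3, Irgm1, Oas1a, Oas3 and Trim30a, not called in ATC, also had a promoter with an ISRE core. Any link between the core and the calls was not tested. Neither of the 2 promoters listed for Irf8 held an ISRE core, and 1 of them held a pair of GAS cores:

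Irf8, chr8:120736162-120736238 (+): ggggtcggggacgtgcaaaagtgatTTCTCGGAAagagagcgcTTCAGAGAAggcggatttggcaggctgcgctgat

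**Figure D1:**
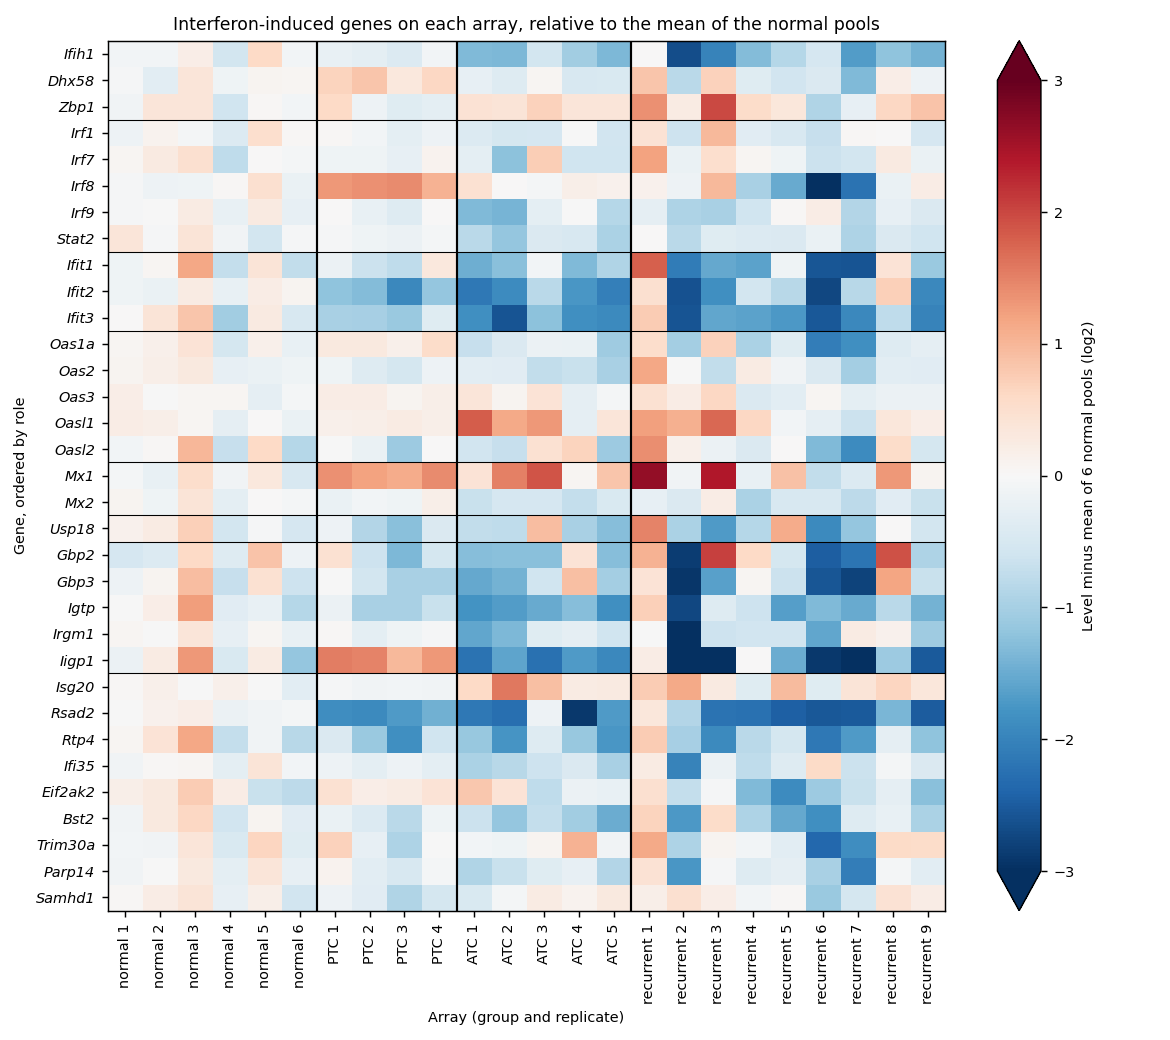
Level of each of the 33 interferon-induced genes (rows, ordered by role) on each of the 24 arrays (columns), as the log2 difference from the mean of the 6 normal pools; colours saturate at 3 and -3. Blue dominates in the ATC columns and in recurrent 2, 6 and 7, and recurrent 1 is mostly red.

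ATC against normal glands asks how the interferon programme stands in undifferentiated tumours. It stood lower in part. Of 33 members, 12 were lower and 1 was higher in ATC (limma, adjusted p under 0.05), which is 36.4% lower against 19.1% of all genes and 3.03% higher against 15.1%; in either direction 34.3% of all genes were called. The median difference was -0.61 on the log2 scale for the members and -0.08 for all genes. The largest falls were in the GTPase gene Iigp1 (-1.93), Ifit3 (-1.88), the antiviral enzyme gene Rsad2 (-1.83), Ifit2 (-1.73) and the GTPase gene Igtp (-1.62). All 5 ATC arrays lay below all 6 pools for 9 of 33 members, where 19.2% of all genes did so, and above them for 1 member, where 14.9% did.

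The count of 13 called members fell to 8 without ATC array 2. It was 7 among JK arrays alone (5 lower and 2 higher) and 0 of 33 among the 3 ATC and 2 Cre pools outside the series, where limma gave 24 negative differences with a median of -0.40. At an unadjusted p under 0.05 the counts over all arrays were 13 lower and 2 higher. Here and below, shares of all genes called come from the fit of all 24 arrays at an adjusted p under 0.05. They are no measure for counts at an unadjusted p, in subsets of arrays or from other fits.

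Recurrent tumours against normal glands asks whether tumours that came back look different from healthy tissue. Limma called 8 members lower and 0 higher (14 and 0 at an unadjusted p under 0.05), which is 24.2% lower against 19.3% of all genes and 0 against 14.5% higher, with 33.8% of all genes called in either direction. The share called lower lies close to that of all genes. The called members were Iigp1 (-2.05), Rsad2 (-1.82), Ifit3 (-1.55), Ifih1 (-1.29), Ifit2 (-1.13), Igtp (-1.08), Mx2 (-0.46) and Stat2 (-0.46). No member separated the groups completely, so 0 of 33 lay wholly above the pools, against 2.9% of all genes, and 0 wholly below, against 5.12%.

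The count of 8 rose to 13 without recurrent array 1 and fell to 5 without normal pool 3. It was 14 without the 3 tumours that kept Tg above 11, a choice made after seeing the data. Within the JK series 4 members were lower and 5 higher (Zbp1, Oas3, Oasl1, Mx1 and Isg20), and outside it 1 was lower and 0 higher, with 28 of 33 differences negative there and 18 of 33 within the series. The shares of all genes above come from all arrays, so the counts within and outside the series cannot be read against them. Of the JK recurrent arrays, 1 and 3 were high for many members.

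PTC against normal glands showed few calls. Only Rsad2 was called lower and 0 members higher by limma (3 lower and 2 higher at an unadjusted p under 0.05), against 8.03% lower, 6.16% higher and 14.2% in either direction among all genes. All PTC arrays lay above all pools for 2 members, Irf8 and Mx1, against 14.6% of all genes, and below them for Rsad2 and Ifit2, against 19.7%. The median difference of the members was -0.15, and that of all genes -0.01. Without PTC array 1 or PTC array 2 the call was lost, leaving 0 of 33, and without recurrent arrays 6 or 8, which enter through the shared spread, 3 and 2 members were called. A fit of the 10 arrays alone called 7: Rsad2, Ifit2 and Ifit3 lower, and Irf8, Mx1, Iigp1 and Dhx58 higher. The 14.2% of all genes belongs to the fit of all groups, so this count cannot be read against it.

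**Figure D2:**
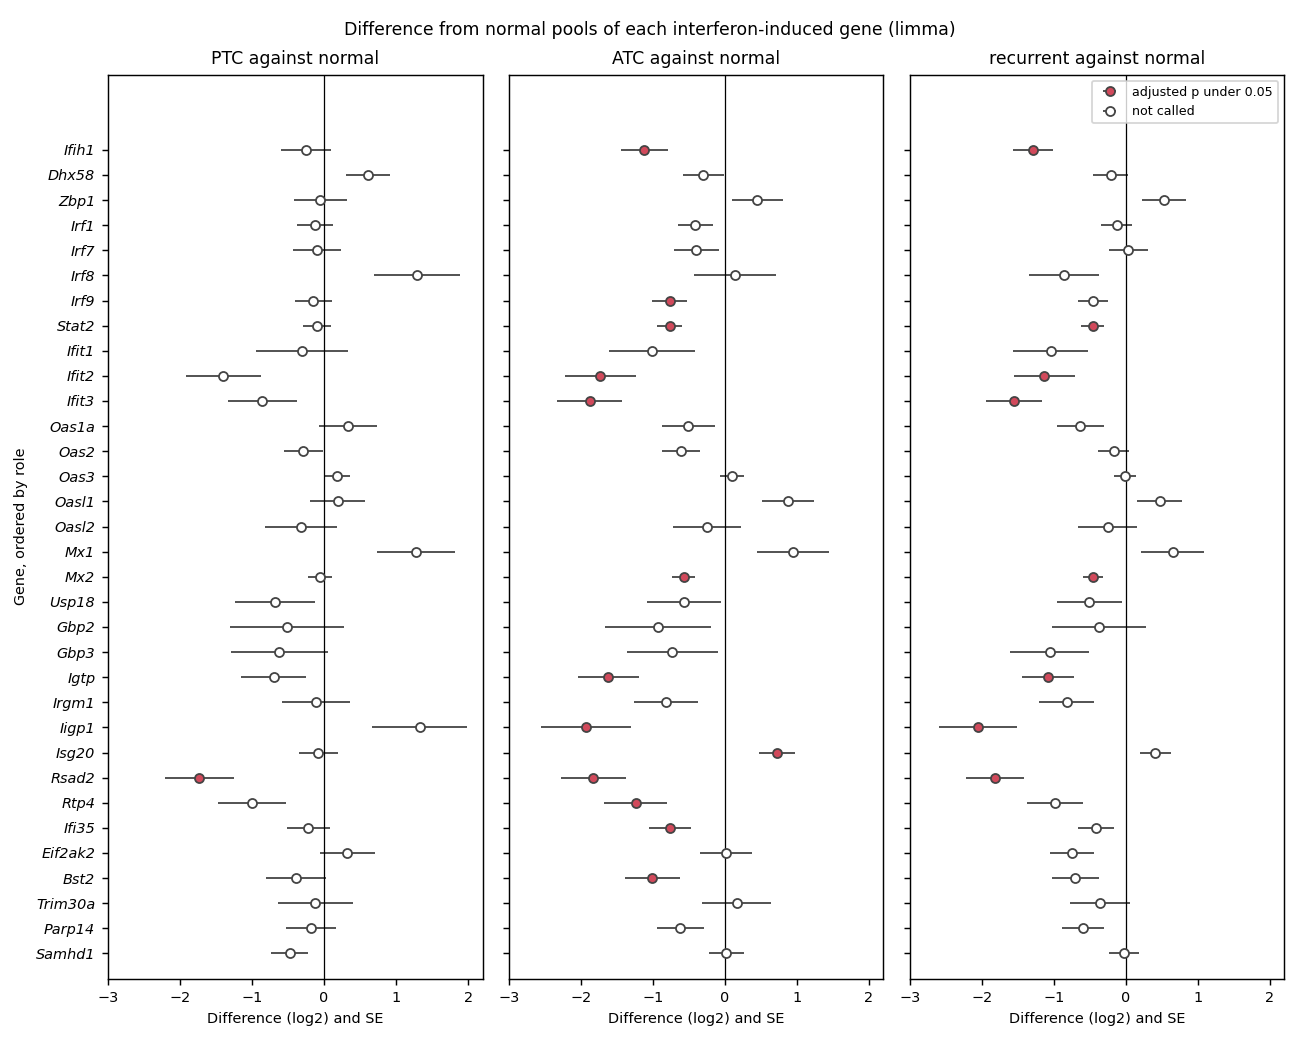
Difference from the 6 normal pools (x axis, log2, with the standard error from limma) for each of the 33 interferon-induced genes (y axis) in PTC, ATC and recurrent tumours; red points passed an adjusted p of 0.05. Red points number 1, 13 and 8 from left to right, and Isg20 in ATC is the one to the right of 0.

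Among sensors of viral RNA and DNA, Ifih1 fell in both aggressive groups. Ifih1 encodes MDA5, which detects long double-stranded RNA. Its level was 8.77 to 9.91 (median 9.25) in the pools, 9.11, 9.03, 8.91 and 9.23 in PTC, 7.99, 7.97, 8.77, 8.29 and 7.97 in ATC, and 6.67 to 9.34 (median 8.01) in recurrent tumours. The highest ATC array met the lowest pool at 8.77, and recurrent arrays 1 and 6, at 9.34 and 8.81, reached the range of the pools. The falls were -1.12 ± 0.33 (SE) in ATC (adjusted p = 0.0103) and -1.29 ± 0.28 (SE) in recurrent tumours (adjusted p = 0.00122). The ATC value was -1.21 within the JK titles (adjusted p = 0.108) and -1.23 outside them (adjusted p = 0.0761), called in neither. The recurrent value was -1.42 within the JK titles (adjusted p = 0.0296) and -1.42 outside them (adjusted p = 0.0447), called in both.

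Dhx58, which encodes the regulatory RNA helicase LGP2, was lower than in PTC in both ATC (-0.91, adjusted p = 0.0449) and recurrent tumours (-0.82, adjusted p = 0.036). The ATC call was lost on leaving out any 1 of 14 of the 24 arrays, and the recurrent call on leaving out any 1 of 6. Both were lost without PTC array 1, 2 or 4, within the JK titles, with title kinds as a block and with means of probe sets. Its dimmer probe sets gave -0.41 and -0.09 in ATC and -0.32 and -0.01 in recurrent tumours. Zbp1, a sensor of left-handed nucleic acids, differed from the pools by 0.45 ± 0.35 (SE) in ATC and 0.53 ± 0.30 (SE) in recurrent tumours, neither called. Within the JK titles it was called higher in recurrent tumours (1.19, adjusted p = 0.0268), and outside them it differed by 0.21 (adjusted p = 0.809).

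Of the transcription factors, Stat2 and Irf9, which act in type I signalling, both fell in ATC. Irf9 fell by 0.77 (adjusted p = 0.0169) and Stat2 by 0.77 (adjusted p = 0.00187), from means of 8.38 ± 0.22 (SD, n = 6) and 6.67 ± 0.35 (SD, n = 6) in the pools. Stat2 was 5.85, 5.51, 6.23, 6.19 and 5.72 on the ATC arrays, against 6.11 to 7.06 (median 6.62) on the pools, so that 2 ATC arrays reached into the range of the pools through pool 5, the lowest. The differences of Irf9 and Stat2 were -1.35 and -1.13 on JK arrays, both called, and -0.40 and -0.32 outside them, neither called; this gap was not tested. Without ATC array 1 or 2 the Irf9 call was lost. In recurrent tumours Stat2 fell by 0.46 (adjusted p = 0.0245), a call lost without normal pool 1 or 3, and Irf9 differed by -0.46 (adjusted p = 0.103). The other probe set of Stat2, which is dimmer, gave -0.25 in ATC and -0.20 in recurrent tumours.

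Irf8 followed its own course. It encodes a factor that guides macrophage and dendritic cell development as well as responding to type II interferon. Its level was 8.40 to 9.09 (median 8.52) in the pools, 9.91, 9.98, 10.02 and 9.65 in PTC, 9.05, 8.62, 8.54, 8.78 and 8.74 in ATC, and 4.56 to 9.58 (median 8.40) in recurrent tumours. All PTC arrays lay above every other array of the study. PTC exceeded normal by 1.29, which passed in a fit of these 2 groups (adjusted p = 2.61e-05) and within the JK titles (1.36, adjusted p = 0.000645) but not with the spread shared by all groups (adjusted p = 0.176). Recurrent tumours against PTC gave -2.15 ± 0.56 (SE) with adjusted p = 0.00804, and -0.97 within the JK titles (adjusted p = 0.00727). The call was lost in a fit of these 2 groups and with title kinds as a block. Its other probe set gave -2.13 here, and 1.59 in PTC against normal, which passed with the shared spread (adjusted p = 0.0167). In order of mean level PTC stood first at 9.89, then ATC at 8.74 and the pools at 8.60, which differed by 0.14 ± 0.57 (SE), and then recurrent tumours at 7.74 with an SD of 1.54.

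Irf1, an early factor of the type II response, and Irf7, the amplifier of type I interferon production, were called in 0 of 6 comparisons by limma, also at an unadjusted p under 0.05. With array weights in limma, Irf1 was called lower in ATC than in the pools (-0.39, adjusted p = 0.0236). Irf7 spanned 5.96 to 7.21 in the pools and 6.07 to 7.94 in recurrent tumours, and its differences from the pools ran from -0.40 to 0.03.

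The IFIT proteins bind foreign RNA and block its translation. Ifit3 was 7.67 to 9.53 (median 8.85) in the pools, 7.73, 7.70, 7.60 and 8.35 in PTC, 6.86, 6.12, 7.47, 6.87 and 6.80 in ATC, and 6.11 to 9.47 (median 6.97) in recurrent tumours. Every ATC array lay below every pool, and of the recurrent arrays only 1, at 9.47, and 8, at 7.94, reached the range of the pools. The falls were -1.88 ± 0.45 (SE) in ATC (adjusted p = 0.00227) and -1.55 ± 0.39 (SE) in recurrent tumours (adjusted p = 0.00354). The ATC value was -2.26 within the JK titles (adjusted p = 0.0363) and -1.56 outside them (adjusted p = 0.0741). The recurrent value was -1.18 within the JK titles (adjusted p = 0.174) and -1.66 outside them (adjusted p = 0.0544), called in neither.

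Ifit2 was 8.06 to 8.54 (median 8.27) in the pools, 7.08, 6.98, 6.36 and 7.13 in PTC, 6.14, 6.41, 7.49, 6.54 and 6.24 in ATC, and 5.55 to 9.0 (median 7.46) in recurrent tumours. The pools were tight and stood above all PTC and ATC arrays. ATC fell by 1.73 (adjusted p = 0.00803), and PTC differed by -1.40, not called (adjusted p = 0.075). The recurrent fall of 1.13 (adjusted p = 0.0429) was lost when any 1 of the pools was left out. Ifit1 differed by -1.01 ± 0.60 (SE) in ATC and -1.04 ± 0.52 (SE) in recurrent tumours, neither called, with recurrent arrays from 4.90 to 9.28.

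The OAS proteins make the 2'-5' oligoadenylates that activate RNase L, and the OAS-like genes Oasl1 and Oasl2 belong to the same family. In this family limma called 0 of 5 members in each of the 6 comparisons. At an unadjusted p under 0.05 the counts were 1 higher and 1 lower in ATC against normal, 1 lower in recurrent tumours against PTC and 0 in the others. Oasl1 was 6.46 to 6.95 in the pools and 8.53, 7.86, 8.02, 6.46 and 7.09 in ATC, where 4 of 5 arrays lay above all pools. Its difference of 0.87 was not called (adjusted p = 0.0646), though a fit without the other groups called it (adjusted p = 0.0311) and among JK arrays (1.42, adjusted p = 0.000533). Oas2 differed by -0.61 in ATC (adjusted p = 0.0728), with all 5 ATC arrays below all pools. Oas1a differed by -0.51 ± 0.37 (SE), Oasl2 by -0.25 ± 0.47 (SE) and Oas3, dim on every array at 4.81 to 5.86, by 0.10 ± 0.17 (SE) in ATC.

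The MX family, dynamin-like GTPases that trap viral particles, gave calls for Mx2 alone. Mx1 was 4.38 to 5.37 (median 4.78) in the pools, near the low end of the array's scale, 6.22, 6.07, 5.97 and 6.28 in PTC, 5.27, 6.37, 6.74, 4.91 and 5.69 in ATC, and 4.11 to 7.49 (median 4.93) in recurrent tumours. All PTC arrays lay above all pools. The PTC difference of 1.28 was called in a fit of these 2 groups (adjusted p = 0.000147) but not with the shared spread (adjusted p = 0.121). Mx2 fell by 0.57 in ATC (adjusted p = 0.00842) and by 0.46 in recurrent tumours (adjusted p = 0.013), though with bare-number titles as a block neither was called. Neither passed within the JK titles (-0.59 in ATC and -0.16 in recurrent tumours) or outside them (-0.54 and -0.60). The recurrent call was also lost in a fit of these 2 groups and with quantile normalization again. Usp18, the protease that removes Isg15 from proteins and damps the type I receptor, differed from the pools by -0.68 to -0.51 and was called in 0 of 6 comparisons by limma, also at an unadjusted p under 0.05. With array weights in limma, it was called lower in PTC than in the pools (-0.81, adjusted p = 0.0298). Its levels ran from 5.02 to 8.43 in recurrent tumours.

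**Figure D3:**
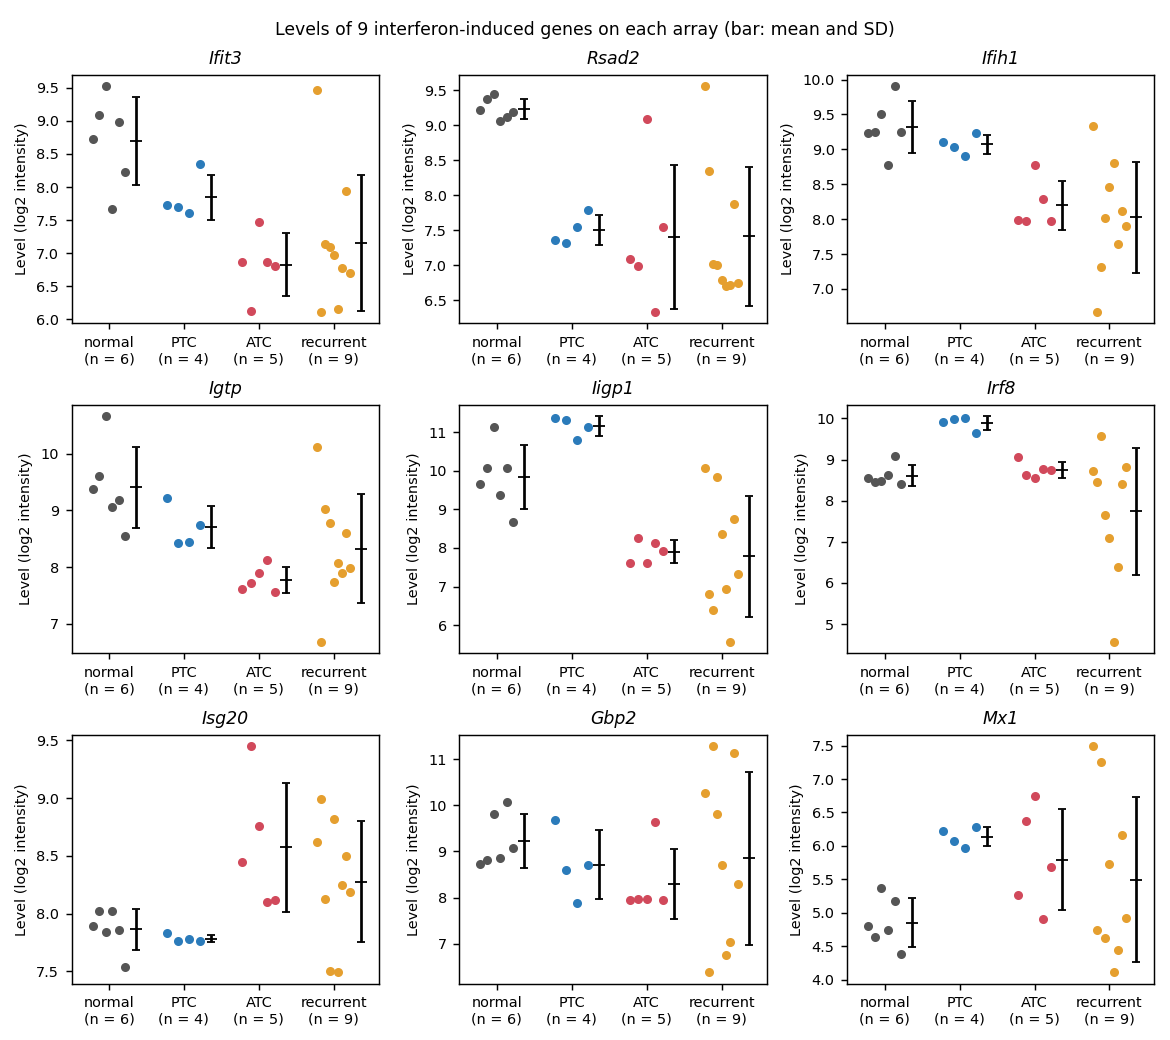
Log2 level (y axis, separate scale per panel) of 9 interferon-induced genes on each array, by group; each point is an array, and the bar at the right of each group is the mean with its SD. For Igtp and Iigp1 every ATC point lies below every normal point, and for Irf8 the 4 PTC points lie above all others.

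GBP and IRG proteins are GTPases, induced above all by type II interferon, that attack the membranes around intracellular pathogens. Iigp1 gave the widest contrast among tumour types. Its level was 8.68 to 11.13 (median 9.87) in the pools, 11.38, 11.32, 10.81 and 11.14 in PTC, 7.62, 8.25, 7.60, 8.13 and 7.91 in ATC, and 5.56 to 10.06 (median 7.32) in recurrent tumours. All PTC arrays lay above all ATC and all recurrent arrays. Against PTC the difference was -3.26 ± 0.69 (SE) in ATC, a 9.59-fold change (adjusted p = 0.00211), and -3.38 ± 0.62 (SE) in recurrent tumours, a 10.4-fold change (adjusted p = 0.000386). Within the JK titles these values were -3.23 and -3.41, both called. The other probe set gave -3.29 and -3.51. Against the pools, Iigp1 was called in ATC (-1.93, adjusted p = 0.0187) but neither within the JK titles (-2.13, adjusted p = 0.0685) nor outside them (-1.50, adjusted p = 0.404). PTC exceeded the pools by 1.33 (adjusted p = 0.207), called in a fit of these 2 groups and with array weights but in no other alternative run.

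Igtp, another IRG GTPase gene, was 8.54 to 10.66 (median 9.28) in the pools, 9.22, 8.42, 8.44 and 8.74 in PTC, 7.61, 7.72, 7.90, 8.12 and 7.56 in ATC, and 6.68 to 10.11 (median 8.08) in recurrent tumours. Every ATC array lay below every pool and every PTC array. It fell by 1.62 ± 0.42 (SE) in ATC (adjusted p = 0.00439) and by 1.08 ± 0.36 (SE) in recurrent tumours (adjusted p = 0.0248). The ATC value was -2.01 within the JK titles (adjusted p = 0.0534) and -1.0 outside them (adjusted p = 0.113), called in neither. The recurrent call was lost without normal pool 2 or 3, and with the title series or bare-number titles as a block. Irgm1 differed by -0.82 in ATC with all 5 arrays below all pools (adjusted p = 0.154). Gbp2 and Gbp3, guanylate-binding GTPases, differed by -0.93 and -0.73 in ATC and were called in 0 of 6 comparisons by limma, also at an unadjusted p under 0.05. A limma fit of ATC and the pools alone called Gbp2 (adjusted p = 0.0442) and Irgm1 (adjusted p = 0.0112) lower. Gbp2 ran from 6.38 to 11.28 in recurrent tumours, above and below the range of 8.73 to 10.08 in the pools.

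Among other effectors, Rsad2, which encodes viperin, an enzyme that makes a chain-terminating nucleotide, was the member that set pools apart from all 3 tumour groups. Its level was 9.06 to 9.44 (median 9.20) in the pools, 7.36, 7.31, 7.54 and 7.79 in PTC, 7.08, 6.98, 9.08, 6.33 and 7.54 in ATC, and 6.70 to 9.56 (median 7.0) in recurrent tumours. The pools were tight, with an SD of 0.15, and only ATC array 3 and recurrent array 1 reached them. The falls were -1.73 ± 0.48 (SE) in PTC (adjusted p = 0.0181), -1.83 ± 0.45 (SE) in ATC (adjusted p = 0.00324) and -1.82 ± 0.40 (SE) in recurrent tumours (adjusted p = 0.00108). These comparisons share the same 6 pools. Within the JK titles the value was -2.24 in ATC (adjusted p = 0.00399) and -0.97 in recurrent tumours (adjusted p = 0.0912), and outside them -1.50 (adjusted p = 0.192) and -2.18 (adjusted p = 0.0703), so that the recurrent call was lost in both subsets. A dimmer probe set gave -2.08, -1.99 and -1.90, and the dimmest gave -0.69, -0.59 and -0.42, none called.

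Rtp4, a chaperone of receptors with antiviral action, differed by -1.24 in ATC (adjusted p = 0.0342), Bst2, the tether that holds budding virus, by -1.01 (adjusted p = 0.0436) and Ifi35 by -0.76 (adjusted p = 0.0428). These 3 calls were lost on leaving out any 1 of 7, 10 and 11 of the 24 arrays, respectively. Isg20, a nuclease that degrades RNA, was the member called higher, at 8.45, 9.45, 8.76, 8.10 and 8.12 in ATC against 7.54 to 8.02 (median 7.88) in the pools. All ATC arrays lay above all pools. The difference of 0.72 (adjusted p = 0.0316) was lost without ATC array 2 or 3, or normal pool 3 or 6. Samhd1, which depletes deoxynucleotides, differed by 0.02 ± 0.24 (SE) in ATC and -0.03 ± 0.21 (SE) in recurrent tumours, while its 2 dimmest probe sets gave -0.52 and -0.69 in ATC (adjusted p = 0.00353 and 0.00376) and -0.50 and -0.43 in recurrent tumours (adjusted p = 0.00144 and 0.0298). Parp14, a mono-ADP-ribosyltransferase gene, and Trim30a differed by -0.62 and 0.16 in ATC and by -0.60 and -0.36 in recurrent tumours, none called. Eif2ak2, the RNA-activated kinase PKR, differed by -1.08 between recurrent tumours and PTC (adjusted p = 0.0329), a call lost without any 1 of the PTC arrays, and its other probe set gave 0.02.

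Between tumour types the calls were few. ATC against PTC had 3 members lower, Iigp1, Dhx58 and Stat2, and 0 higher by limma (6 and 1 at an unadjusted p under 0.05), which is 9.09% against 9.35% of all genes called lower, 0 against 7.81% higher, and 17.2% in either direction. All ATC arrays lay below all PTC arrays for 10 members, against 17.5% of all genes, and above them for 1, against 15%. The count ranged from 1 to 6 with single arrays left out: 1 without PTC array 1 or 4 or ATC array 2, 6 without recurrent array 2, and 5 without recurrent array 3, 4 or 6. Recurrent tumours against PTC had 5 lower, Iigp1, Irf8, Eif2ak2, Ifih1 and Dhx58, and 0 higher by limma (7 and 0 at an unadjusted p under 0.05), or 15.2% against 12.1% lower, 0 against 9.71% higher and 21.8% in either direction. All recurrent arrays lay below all PTC arrays for 2 members, Irf8 and Iigp1, against 5.51% of all genes, and above them for 0, against 4.05%. That count was 2 without PTC array 1, 2 or 4, and 3 without recurrent array 4. Within the JK titles, which hold all PTC arrays but only 3 recurrent arrays, 3 members were lower and 4 higher (Zbp1, Oasl1, Isg20 and Samhd1). There 16 of 33 differences were negative, and the median was 0.08.

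Recurrent tumours against ATC asks whether the programme shifted on recurrence. Limma called 0 of 33 members, against 1.19% of all genes called higher, 3.12% lower and 4.32% in either direction, and 0 members separated the groups, against 0.202% above and 0.686% below. At an unadjusted p under 0.05, only Eif2ak2 passed, at -0.77 ± 0.33 (SE), and 0 members were higher. With array weights 1 member, Oas2, was called higher (0.75, adjusted p = 0.0473). Differences ran from -1.0 ± 0.52 (SE) for Irf8 to 0.60 ± 0.45 (SE) for Ifit2, with a median of 0.02 against 0.05 for all genes. The median was 0.56 within the JK titles and -0.16 outside them.

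The 9 recurrent tumours differed widely among themselves. The median SD of a member was 0.91 across them, against 0.48 in ATC, 0.35 in the pools and 0.22 in PTC; the medians over all genes were 0.52, 0.27, 0.18 and 0.14. Recurrent array 1 was the highest of the 9 for 18 of 33 members and among the highest 3 for 31. Array 8 was among the highest 3 for 22 members and array 3 for 17, whereas array 7 was among the lowest 3 for 26, array 6 for 23 and array 2 for 19.

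The mean of the 33 members, as a difference from the pools, gives the same picture. It was 0.69 on recurrent array 1, 0.03 on array 8, -0.22 on array 3, -0.51 on 5, -0.54 on 4, -0.66 on 9, -1.10 on 2, -1.26 on 7 and -1.36 on 6. The pools ran from -0.36 to 0.48, PTC from -0.44 to 0.05 and ATC from -0.79 to -0.20. Thus arrays 3, 4, 5 and 9 lay within the ATC range and arrays 3 and 8 within that of the pools, which overlap, with 1 array above all other arrays of the study and 3 below all arrays of the other groups.

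Members differed in how closely they followed this order. Over the 9 recurrent arrays, which differ in title kind and Tg as given above, Pearson's r between a member and the mean of the other members was 0.95 for Irf7, 0.92 for Ifit3 and 0.91 for Ifit1, and 0.07 for Irf9, 0.26 for Isg20 and 0.31 for Ifi35. Genes of a family on the same chromosome were also compared in pairs, where the median r over all pairs of members was 0.49. The r was 0.89 for Ifit1 and Ifit3 and 0.76 for Ifit1 and Ifit2 on chromosome 19. It was 0.78 for Gbp2 and Gbp3 on chromosome 3, 0.77 for Mx1 and Mx2 on chromosome 16, and 0.68 for Igtp and Irgm1 on chromosome 11. On chromosome 5 it was 0.67 for Oasl1 and Oasl2, 0.54 for Oas1a and Oas3, and 0.41 for Oas1a and Oas2, below that median. These are descriptions over 9 arrays.

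Single tumours also broke the order, in examples chosen after their values were seen. Array 3, the second lowest of the 9 for Usp18 (5.23) and Iigp1 (6.40), was the highest for Gbp2 (11.28), Irf1 (10.71), Irf8 (9.58) and Zbp1 (8.68). Array 6, the lowest for Irf8 (4.56) and Trim30a (5.26), was the highest for Ifi35 (9.36). Array 7, the lowest for Iigp1 (5.56), held the highest Irgm1 (9.53).

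Macrophage and general leukocyte markers stood higher in ATC. Of 12 macrophage markers 9 were higher in ATC than in the pools and 0 lower, against 15.1% and 19.1% of all genes. Among those 9 were Adgre1 (1.44), Cd68 (2.41) and Mrc1 (3.13). All 3 general leukocyte genes rose, with Ptprc at 1.56. The mean of the macrophage list, as a difference from the pools, was -0.54 to 1.04 in the pools, 0.43 to 1.51 in PTC, 1.84 to 2.35 in ATC and -1.17 to 2.52 in recurrent tumours. Of 12 T and NK cell markers 2 were lower in ATC (16.7%, against 19.1% of all genes) and 0 higher, and their mean was -0.37 to 1.01 in the pools, -0.47 to 0.10 in PTC, -0.54 to -0.26 in ATC and -0.82 to 0.19 in recurrent tumours. Log2 array values have no true 0, and the T cell gene Cd3e was at 5.84 or above on every array. Normal pool 3, with the highest T and NK mean of all arrays (1.01), also held the highest member mean of the pools (0.48). In ATC the mean of the macrophage list stood above that of every pool on every array, while the members' mean stood below that of 4 of 6 pools or more. For 8 of its 12 markers all ATC arrays lay above all pools, against 14.9% of all genes. Other lists differed too. In ATC 4 of 7 fibroblast and 3 of 8 neutrophil genes were higher and 0 lower. All measured thyroid follicular (7), adipocyte (4), parathyroid (2) and C cell (3) genes were lower. The thyroid follicular genes had a median difference of -5.1 in ATC. In PTC 4 of these 7 were lower, or 57.1% against 8.03% of all genes. Of 6 dendritic cell genes 1 was higher and 2 were lower in ATC, and of 6 B and plasma cell genes 1 was lower. Of 7 endothelial genes 1 was lower, and 0 of 4 skeletal muscle genes were called. The part of any cell type in the members' levels was not tested.

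In recurrent tumours the arrays with the lowest member means, 2, 6 and 7, had macrophage means of -0.55, -1.17 and 0.36, the lowest of the 9. Arrays 1 and 8, with the highest member means, had 2.24 and 2.52, but array 9 had 2.52 with a member mean of -0.66. The part of macrophages in the spread was not tested.

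**Figure D4:**
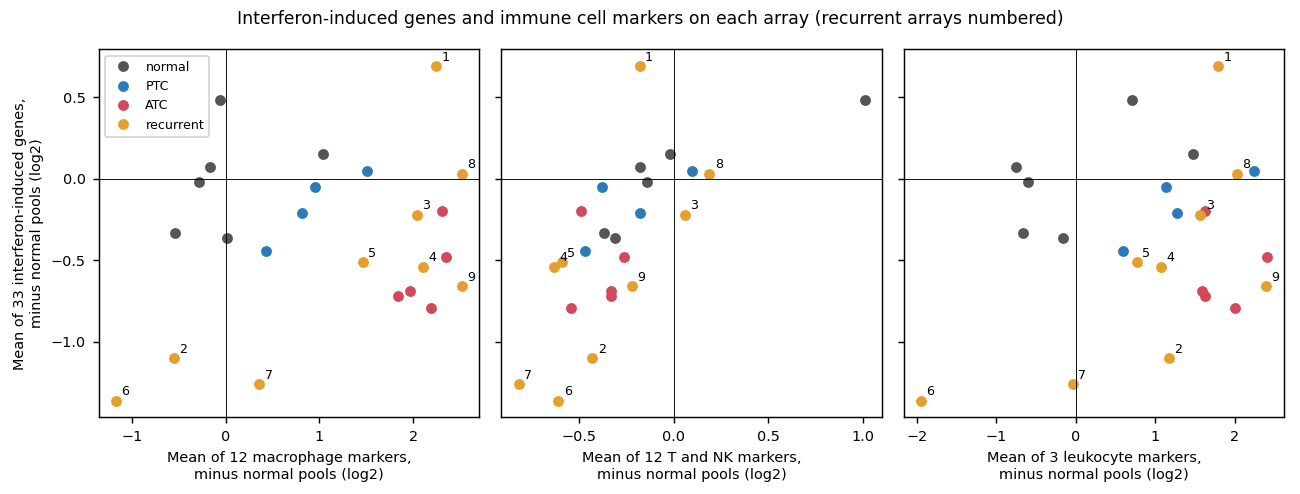
Mean of the 33 interferon-induced genes (y axis) against the mean of 12 macrophage, 12 T and NK cell and 3 leukocyte markers (x axes), all as log2 differences from the mean of the 6 normal pools; each point is an array and recurrent arrays carry their number. ATC points lie at macrophage means of 1.84 to 2.35 and member means of -0.79 to -0.20, and recurrent 2, 6 and 7 lie lowest.

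The rest of the pathway was read through lists of its genes outside the members. Of 10 measured interferon genes, Ifna1 was lower in ATC (-0.60) and recurrent tumours (-0.91), and the limitin gene Ifnz was higher in PTC (1.13). Ifna1 was dim, at 5.03 to 6.42, where array medians were 7.38 or above. Ifng was at 3.38 to 3.73 and Ifnb1 at 4.52 to 5.48 over all 24 arrays, low on a scale that began at 2.71. Among 14 receptor and signalling genes, 2 were higher (14.3%) and 3 lower (21.4%) in ATC, close to the 15.1% and 19.1% of all genes. Ifnar2, a chain of the type I receptor, was 10.26 to 10.41 in the pools and fell by 0.96 in PTC (adjusted p = 0.00886), 1.29 in ATC (adjusted p = 0.000136) and 0.95 in recurrent tumours (adjusted p = 0.000688). Pias1, a SUMO ligase gene, fell by 0.92 in ATC. Socs3, a feedback inhibitor of cytokine receptors that many cytokines induce, rose by 3.21, 3.27 and 2.82 in the 3 tumour groups. Jak2, a kinase of the type II receptor, fell in recurrent tumours by 1.14 from the pools and by 0.68 from ATC (adjusted p = 0.0289).

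Among 14 further sensors and adaptors, 3 were higher (21.4%) and 2 lower (14.3%) in ATC, where 15.1% and 19.1% of all genes were. Sting1, the adaptor of the DNA-sensing route, rose by 1.68 in PTC, 1.38 in ATC and 1.35 in recurrent tumours, and Irf5, a factor of the TLR routes, by 1.29 in ATC. Tlr3, an endosomal sensor of double-stranded RNA, fell by 1.36 in ATC and 1.64 in recurrent tumours. Irf3, the factor that starts interferon production, rose by 0.55 in PTC and fell by 0.44 in ATC and 0.38 in recurrent tumours.

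Antigen presentation genes and chemokines of the interferon response form another list. Of 14 measured, 1 was lower in PTC, 7 were lower in ATC and 7 in recurrent tumours, with 0 higher in either by limma and 0 higher at an unadjusted p under 0.05. The shares of all genes lower were 8.03% in PTC, 19.1% in ATC and 19.3% in recurrent tumours. Cxcl11, a T cell attractant, was 6.88 to 9.22 in the pools and 5.12 to 5.26 in ATC, a difference of -3.01 (adjusted p = 3.83e-05), and differed by -2.21 in PTC and -2.57 in recurrent tumours, both called. The peptide transporter genes Tap1 and Tap2 differed by -1.0 and -1.2 in ATC and by -0.84 and -0.97 in recurrent tumours, all called.

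Another 26 interferon-induced genes outside the members went both ways. In ATC 8 were lower (30.8%) and 5 higher (19.2%), against 19.1% and 15.1% of all genes. In recurrent tumours 10 were lower (38.5%) and 6 higher (23.1%), against 19.3% and 14.5%. Cmpk2, a nucleotide kinase gene, differed by -1.32 in PTC, -1.99 in ATC and -1.24 in recurrent tumours, and Trim34a and the scramblase gene Plscr1 by -1.56 and -1.28 in recurrent tumours, all called. Ifi204, a gene for a DNA-binding protein, rose by 2.33 and Slfn2 by 1.91 in ATC, and the lysosomal reductase gene Ifi30 rose by 1.24, 1.42 and 0.99 in the 3 tumour groups.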

How the data were processed

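The authors deposited log2 intensities of 22690 probe sets, made with RMA in Partek per the submitters' processing notes; no source used here gives versions or a genome build. RMA brings arrays towards a common distribution, so a shift of all genes would not be seen. GEO's platform annotation named the probe sets (20393 with 1 symbol, 691 with several, 1606 with none), updated with RefSeq for 20364. Values ran from 2.71 to 14.96 and array medians from 7.38 to 7.58. Among 276 array pairs 0 were identical (highest r 0.993).

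Means of the 4 groups over 24 arrays were estimated in limma 3.58.1 (R 4.3.3), and differences were called at a Benjamini-Hochberg adjusted p under 0.05 over 12394 genes. It was checked on simulated data. Groups follow the tissue label, and replicate numbers follow record order. Alternatives changed the arrays, blocks, probe sets, scaling and spread. Members and lists were chosen with earlier results of these data known. Every member was named, with array values for those called with the largest differences in each role, and for Mx1 and Oasl1, chosen after their values were seen; of other pathway lists, up to 3 called genes per comparison by size of difference. Figures used Python 3.11.15, pandas 2.3.3 and matplotlib 3.10.9.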

Additional observations from a re-analysis of the deposited data

Results flagged for a closer look

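In 6 of 132 combinations of member and group (4.55%), 1 array stood far from the rest of its group; chance gives about 1 in 20. On ATC array 4, Gbp2 was at 9.64 where the other ATC arrays lay between 7.94 and 7.97, and Trim30a was at 8.66 against 7.49 to 7.71. On ATC array 3, Usp18 was at 7.86 against 5.66 to 6.19, and Zbp1 at 7.40 against 7.07 to 7.14. Normal pool 5 held Irf8 at 9.09, with the other pools at 8.40 to 8.63. Recurrent array 2 held Irgm1 at 5.96, with the other recurrent arrays at 7.72 to 9.53.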

How the results depend on the processing

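Counts of called members depended on how the spread was estimated. They are given for PTC, ATC and recurrent tumours against normal, ATC against PTC, and recurrent tumours against PTC, where the value moved by over 1.5 times. Fits of the 2 groups alone gave 7, 22, 4, 12 and 1. In ATC against normal these fits added Zbp1, Oasl1 and Mx1 as higher, and Ifit1, Oas1a, Oas2, Gbp2, Irgm1 and Parp14 as lower. Array weights gave 12 in PTC and 20 in ATC against normal, 16 in ATC against PTC, 10 in recurrent against PTC and 1 in recurrent against ATC. In ATC against normal the weights added Oasl1 and Mx1 as higher, and Irf1, Oas1a, Oas2, Irgm1 and Parp14 as lower. JK titles alone gave 3 in PTC and 7 in ATC against normal and 6 in ATC against PTC. Arrays outside them, a choice added after seeing the data, gave 0 in ATC and 1 in recurrent tumours against normal, and leaving out the 3 tumours with Tg above 11, also added, gave 14 in the latter. A required difference of 1 gave 8 in ATC against normal and 1 in ATC against PTC. In the last comparison bare-number titles as a block gave 5, as did leaving out dim genes. Every probe set on its own gave 3 in PTC against normal, and means of probe sets 3 in recurrent against PTC. With each array left out in turn the counts ran from 0 to 3, 8 to 15, 5 to 13, 1 to 6 and 2 to 7, and stayed at 0 in recurrent against ATC.

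Of single members, 2 had the opposite sign in an alternative that called them: Oas3 in recurrent tumours against normal was 0.35 within the JK titles, and Samhd1 in ATC against normal was -0.52 with the probe set of lowest p. The cause was not tested. Centring arrays on their medians, quantile normalization again and a trended robust spread kept every count within 1.5 times. No paired analysis was possible because replicate numbers follow record order. Dim members such as Mx1 and Oas3 lie near the low end of the scale.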
